A study of Mus musculus with 18 samples.

Results

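Chemokines are small secreted proteins that draw leukocytes along a gradient, and their receptors are G protein-coupled receptors on the cells that respond. The 47 genes described here are the mouse chemokine and chemokine receptor genes chosen by symbol (Ccl, Ccr, Cxcl, Cxcr, Cx3cl, Cx3cr, Xcl, Xcr or Ackr followed by a number) that held at least 10 counts in at least 4 of 18 libraries of mouse adipose tissue. In all, 60 of the 55487 genes counted had such a symbol. The 47 members comprised 26 ligands and 21 receptors, of which 4 were atypical receptors that bind chemokines without G protein signaling. The 13 genes left out were Ccl1, Ccl4, Ccl17, Ccl20, Ccl21a, Ccl21b, Ccl26, Ccr8, Cxcl2, Cxcl3, Cxcl5, Cxcl15 and Xcl1. Just outside the rule, Ccl17 and Cxcl2 reached 10 counts in 3 libraries, and just inside it Ccl19, Ccl27b, Ccr4, Cxcr1 and Cxcr2 did so in 5.

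Bulk RNA was sequenced from subcutaneous white adipose tissue (sWAT) of 12-week-old mice, 4 Csn8AKO and 4 Ctrl, and from brown adipose tissue (BAT) of 4-week-old mice, 5 Csn8AKO and 5 Ctrl, with 1 male mouse on chow per library. Csn8AKO mice carried Csn8 alleles with loxP sites together with Cre recombinase under the adiponectin promoter, which is active in adipocytes, and Ctrl mice were littermates with the floxed alleles (Csn8 f/f) and no Cre. Depot and age therefore cannot be told apart in any comparison of sWAT with BAT. Csn8 is listed as Cops8, which ranged from 27.0 to 34.9 CPM (counts scaled to library size) in Csn8AKO sWAT against 31.9 to 35.7 in Ctrl sWAT (log2 fold change -0.12, adjusted p = 0.623), and from 28.4 to 37.4 against 38.1 to 46.0 in BAT (-0.30, adjusted p = 0.0211). That count covers the whole gene, including exons that the deletion leaves, and whole tissue, including cells without Cre.

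The libraries held 15835721 to 23109603 counts in sWAT and 26658593 to 66719937 in BAT. Genes of ribosomal RNA took 1.80% to 47.8% of them in sWAT and 0.863% to 15.1% in BAT. Summed markers of lymph node (17 genes) exceeded 5 times the median of their depot in 2 libraries, Ctrl sWAT replicate 1 at 473 CPM and Csn8AKO sWAT replicate 2 at 944 CPM, while in the whole of BAT that sum stayed between 9.87 and 14.6 CPM. These 2 libraries stand 1 in each genotype, and calls that changed without them are given beside the results. All levels below are CPM scaled by trimmed mean of M values (TMM) over all 18 libraries, and fold changes are log2 values, Csn8AKO over Ctrl unless stated, with adjusted p from edgeR's quasi-likelihood test adjusted over all genes tested. A gene was called changed at an adjusted p under 0.05.

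The ligands fall into functional families. CCL2, CCL7, CCL8 and CCL12 attract monocytes through CCR2, CCL3, CCL6 and CCL9 attract myeloid cells through CCR1 among others, and CX3CL1 acts through CX3CR1. CXCL1 and its relatives attract neutrophils through CXCR2. CXCL9, CXCL10 and CXCL11 are induced by interferon gamma and attract activated T cells through CXCR3, whereas CXCL13 and CCL19 arrange B and T cells in lymphoid organs through CXCR5 and CCR7. In adipose tissue, CCL2 and CCR2 are known for bringing in monocytes that become tissue macrophages.

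In sWAT, 6 members rose and 2 fell among the 40 tested. The risers included the ligands Ccl6, Ccl8, Ccl9 and Cxcl9 and the atypical receptor Ackr1, and those that fell were Cxcl10 and Cxcl11. Over all 18843 genes tested in sWAT, 5.31% were called, 2.3% higher and 3% lower. In BAT, 17 of 39 members tested rose and 5 fell, against 31.9% called over all 22345 genes, 16% higher and 15.8% lower. The risers in BAT included Ccl2, Ccl3, Ccl6, Ccl9, Cx3cl1, Cxcl1, Ccl11, Cxcl12, Cxcl16, Ccr1, Ccr2, Cxcr1, Cxcr3, Cxcr4, Ackr1 and Ackr2, and those that fell were Cxcl10, Cxcl11, Ccr6, Ccr10 and Ackr4. The median log2 fold change of the members tested was 0.56 in sWAT and 0.69 in BAT, beside 0.03 and 0.01 over all genes tested. Some members were tested after passing the filter on low counts only through the group where they are high, so these medians describe the members that passed. Groups did not overlap for 10 members in sWAT, 7 with Csn8AKO higher and 3 lower, where 13.6% of all genes tested had groups apart. In BAT they did not overlap for 14 members, 11 higher and 3 lower, where 21.1% of all genes did.

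**Figure D1:**
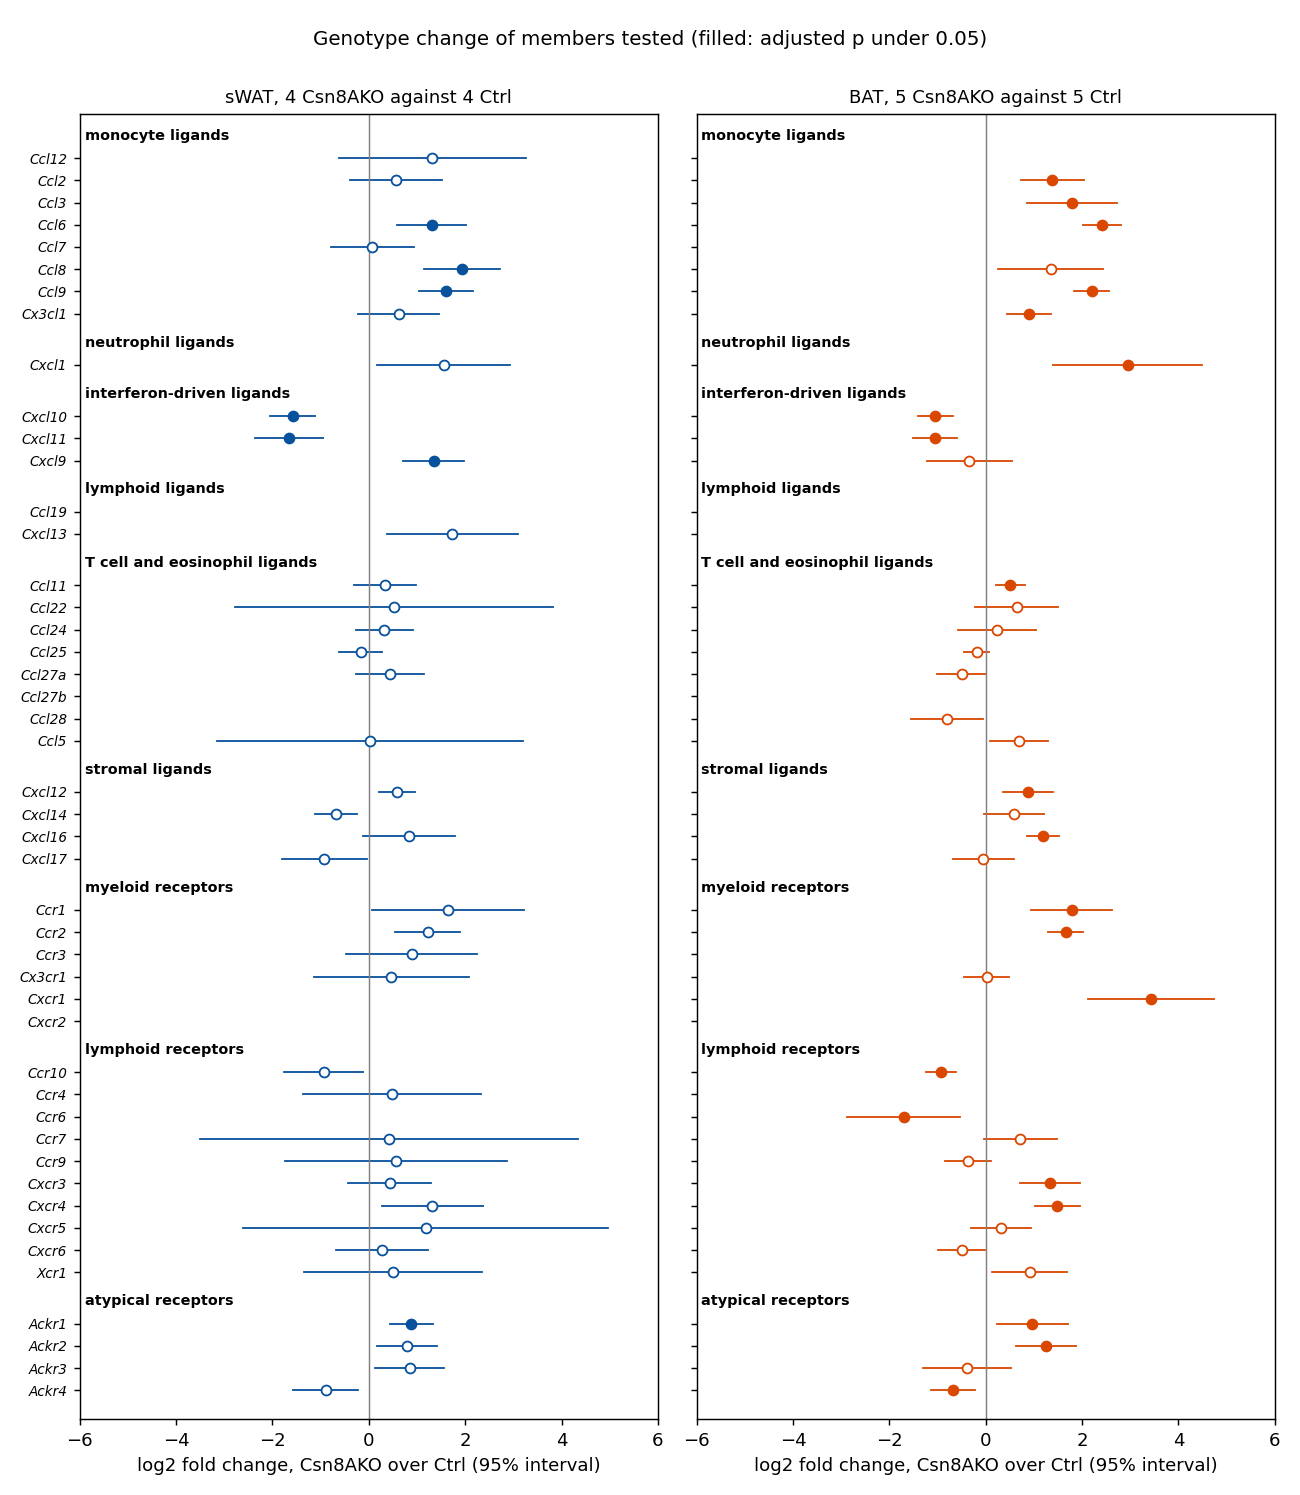
Log2 fold change of 46 members, Csn8AKO over Ctrl, in sWAT (left) and BAT (right), ordered by function, with lines for the 95% interval of the quasi-likelihood fit and filled points for an adjusted p under 0.05. A row without a point was not tested in that depot. Monocyte ligands and myeloid receptors lie to the right of 0 in both depots, Cxcl10 and Cxcl11 lie to the left in both, and lymphoid receptors such as Ccr7 and Cxcr5 have wide intervals in sWAT.

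Of the 35 members tested in both depots, 4 were called higher in both (among them Ccl6, Ccl9 and Ackr1), 2 were called lower in both (Cxcl10 and Cxcl11), 13 were called in BAT alone, 2 in sWAT alone (Ccl8 and Cxcl9), 14 in neither and 0 in opposite directions. The same counts were not made over all genes, so no background share stands beside them. A call in 1 depot and not in the other does not show a difference between the depots. The test of that difference, the interaction of genotype and depot, called 1 of 45 members tested by edgeR (Cxcr1, 2.22%). Over all genes 2.36% were called, so that the members' share was near the background. An unadjusted p under 0.05 was found by edgeR for 8 members. That count was not made over all genes, so it has no background share and no excess is read from it.

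The monocyte ligands that were tested had fold changes in 1 direction. All 7 tested in sWAT and all 6 tested in BAT had positive fold changes, with medians of 1.30 and 1.59, and 3 and 5 of them rose. The 5 in BAT include Ccl3, which rests on few counts. Ccl6, the ligand of highest level per kilobase of gene length in Ctrl sWAT (51.5 ± 15.2 TMM CPM per kb, SD, n = 4), was measured at 76.0, 64.3, 105 and 124 CPM in Ctrl sWAT and at 376, 188, 209 and 134 CPM in Csn8AKO sWAT. Every Csn8AKO library was above every Ctrl library (log2 fold change 1.30 ± 0.32, SE, adjusted p = 0.0467). In BAT its level was 2.27, 3.19, 2.39, 3.28 and 2.68 CPM in Ctrl and 14.7, 9.31, 14.4, 16.0 and 18.3 CPM in Csn8AKO mice. The BAT groups were also apart (2.42 ± 0.18, adjusted p = 6.99e-07), from a baseline more than an order of magnitude lower.

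Ccl9, the neighbor of Ccl6 on chromosome 11, showed the same order. It was at 42.6, 35.4, 51.0 and 68.0 CPM in Ctrl sWAT and at 211, 134, 151 and 99.5 CPM in Csn8AKO sWAT (1.60 ± 0.25, adjusted p = 0.00815). In BAT it was at 1.56, 1.86, 1.79, 2.08 and 1.21 CPM in Ctrl and at 7.35, 5.98, 8.23, 8.04 and 8.96 CPM in Csn8AKO mice (2.20 ± 0.17, adjusted p = 9.93e-07). Ccl9 and Cxcl10 were the members called in sWAT that stayed called with each of the 8 libraries left out in turn. The call of Ccl6 in sWAT was lost in 7 of those 8 fits, with adjusted p up to 0.130, and also without the 2 libraries high in lymph node genes (1.30 ± 0.43, adjusted p = 0.124). In BAT both genes stayed called with each of the 10 libraries left out.

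Because Ccl6 and Ccl9 lie side by side and moved together, the sequences from 250 bases before to 50 bases after the start of each (RefSeq, GRCm38.p6, minus strand) are shown here. The Ccl6 window is chr11:83593038-83593337 and the Ccl9 window is chr11:83578587-83578886. Neither holds the core of the interferon response element, searched as GAAANNGAA, or the NF-kB type motif GGGANTTTC, each on both strands, so that no base is in capitals.
Ccl6: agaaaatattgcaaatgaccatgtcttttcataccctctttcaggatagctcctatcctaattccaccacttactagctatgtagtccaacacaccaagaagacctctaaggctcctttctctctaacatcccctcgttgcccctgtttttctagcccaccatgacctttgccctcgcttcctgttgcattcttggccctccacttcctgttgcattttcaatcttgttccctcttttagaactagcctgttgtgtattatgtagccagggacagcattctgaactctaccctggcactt
Ccl9: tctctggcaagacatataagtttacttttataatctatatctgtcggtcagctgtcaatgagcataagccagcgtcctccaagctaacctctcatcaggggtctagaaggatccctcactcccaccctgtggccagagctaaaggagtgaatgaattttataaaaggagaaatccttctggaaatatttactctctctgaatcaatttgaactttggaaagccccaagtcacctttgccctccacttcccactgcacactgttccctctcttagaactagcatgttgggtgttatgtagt

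Ccl8, also a CCR2 ligand, was at 10.5, 8.46, 14.5 and 16.1 CPM in Ctrl sWAT and at 77.7, 22.2, 46.0 and 43.9 CPM in Csn8AKO sWAT. Its groups were apart and it had the largest fold change of the members called in sWAT (1.93 ± 0.35, adjusted p = 0.0173). Its call was lost without Ctrl replicate 2, Ctrl replicate 3 or Csn8AKO replicate 3, with adjusted p up to 0.0563. In BAT it was under 1 CPM in every library (0.150 ± 0.0745 in Ctrl and 0.372 ± 0.239 in Csn8AKO mice, SD, n = 5) and not called (1.35 ± 0.51, adjusted p = 0.0571).

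Ccl2 was at 5.99, 5.66, 4.35 and 6.29 CPM in Ctrl sWAT and at 7.22, 16.1, 5.70 and 3.26 CPM in Csn8AKO sWAT. The groups overlapped, with Csn8AKO replicate 2, 1 of the 2 libraries high in lymph node genes, the highest (0.57 ± 0.43, adjusted p = 0.524). In BAT Ccl2 was at 0.540, 0.298, 0.351, 0.248 and 0.223 CPM in Ctrl and at 1.04, 0.569, 0.636, 0.898 and 1.01 CPM in Csn8AKO mice, with no overlap (1.39 ± 0.30, adjusted p = 0.00304). The BAT call was not kept with the lymph node level as a covariate (adjusted p = 0.0644). No BAT library was high in lymph node genes. Of the 13 such genes tested there 3 rose and 1 fell in Csn8AKO mice, beside 31.9% of all genes called in BAT. The summed markers of lymph node did not differ detectably in BAT (ratio of means 1.14, two-sided exact permutation test, p = 0.135). Whether that covariate takes up part of the genotype effect in BAT was not tested. With no BAT library high in those genes, a BAT call lost with the covariate, here or below, does not show a dependence on lymph node content. Cx3cl1 rose in BAT from 3.99 ± 1.31 to 7.32 ± 1.53 CPM (SD, n = 5, adjusted p = 0.00536) and Ccl3 from 0.109 ± 0.0730 to 0.394 ± 0.117 CPM (adjusted p = 0.00632). Ccl3 had 2, 4, 14, 6 and 4 counts in Ctrl BAT and 13, 8, 13, 35 and 14 in Csn8AKO BAT. It passed the filter on low counts through the Csn8AKO libraries, where it is high. Ccl7 did not differ detectably in sWAT (0.07, 95% interval -0.79 to 0.93), and Ccl12 had a value of 1.32 there with an interval of -0.62 to 3.26. Neither was tested in BAT, where Ccl7 was at 0 to 0.365 CPM and Ccl12 at 0.0501 to 0.620 CPM. There the mean of Ccl7 was higher in Csn8AKO mice (0.237 ± 0.0849 against 0.0573 ± 0.0534 CPM, SD, n = 5). That of Ccl12 was lower (0.107 ± 0.0474 against 0.260 ± 0.241 CPM), with groups that overlapped.

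The receptors on monocytes and macrophages described here mostly followed the ligands in BAT. Ccr2, the receptor of CCL2, was at 3.29, 2.93, 1.90, 2.25 and 2.90 CPM in Ctrl BAT and at 8.17, 6.51, 8.34, 8.36 and 9.87 CPM in Csn8AKO BAT (1.66 ± 0.17, adjusted p = 8.60e-06). In sWAT it was at 25.0, 18.8, 21.1 and 18.6 CPM in Ctrl and at 84.7, 28.4, 46.9 and 34.8 CPM in Csn8AKO mice. Its sWAT groups did not overlap, but it missed the threshold (1.22 ± 0.30, adjusted p = 0.0515), and it was called in 9 of 11 other fits of the same libraries or subsets of them, including that without the 2 libraries high in lymph node genes (1.52, adjusted p = 0.0207).

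Ccr1 rose in BAT (1.79 ± 0.39, adjusted p = 0.00337) and had a like value without a call in sWAT (1.64 ± 0.69, adjusted p = 0.228), where Csn8AKO replicate 1 stood at 20.1 CPM and the other 3 Csn8AKO libraries at 3.83 to 7.04. Cx3cr1 differed little in BAT, from 1.33 ± 0.350 to 1.32 ± 0.240 CPM (0.02, 95% interval -0.45 to 0.50), although its ligand Cx3cl1 rose there. Ccr3, the eotaxin receptor, was at 0.0186 to 0.162 CPM in Ctrl BAT and 0.163 to 0.645 CPM in Csn8AKO BAT and was not tested there.

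**Figure D2:**
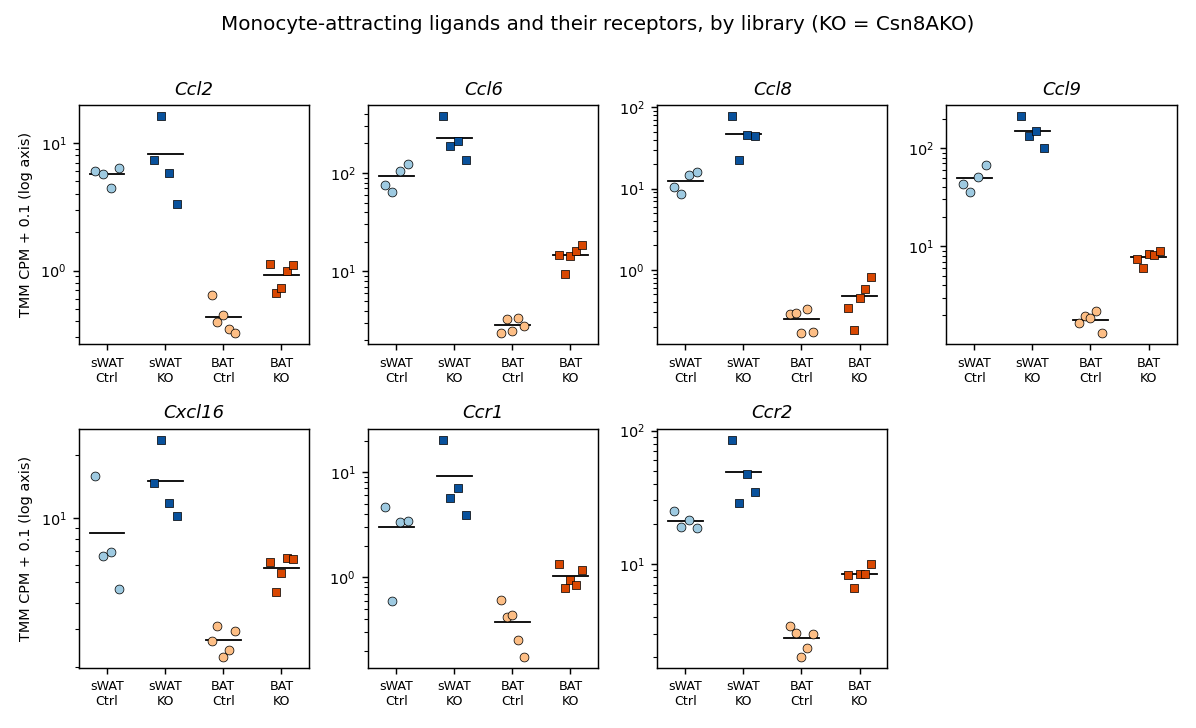
Level of 5 ligands that attract monocytes and myeloid or T cells and of 2 receptors in each library, as TMM CPM plus 0.1 on a log axis that differs between panels, with circles for Ctrl, squares for Csn8AKO and a bar at the group mean. For Ccl6, Ccl9 and Ccr2 the Csn8AKO libraries lie above the Ctrl libraries in both depots, and the BAT levels lie far below those of sWAT.

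Macrophage markers moved with these genes. Of 16 markers, 9 rose in sWAT and 14 in BAT, none fell, and all were detected in both depots. Beside this and the marker counts below, 5.31% of all genes tested were called in sWAT and 31.9% in BAT. Their summed level was 1299 to 1837 CPM in Ctrl and 2083 to 3727 CPM in Csn8AKO sWAT (ratio of means 1.93, two-sided exact permutation test, p = 0.0286, adjusted over 8 tests 0.114), and 156 to 212 CPM in Ctrl and 492 to 673 CPM in Csn8AKO BAT (3.15, exact p = 0.00794, adjusted 0.0635). Both p-values are the smallest that 4 against 4 and 5 against 5 mice allow. In such bulk samples, more cells of a type and more RNA per cell cannot be told apart. The part of macrophage content in the rise of monocyte ligands and receptors was not tested.

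Neutrophil attractants were scarce. Of the 5 genes on that list, Cxcl1 alone passed the count rule. Cxcl2, Cxcl3, Cxcl5 and Cxcl15 had at most 36, 29, 14 and 0 counts in any library. Cxcl1 was at 0.216, 0.228, 0.0334, 0.191 and 0.112 CPM in Ctrl BAT and at 0.832, 0.163, 0.353, 1.53 and 2.94 CPM in Csn8AKO BAT. It rose (2.95 ± 0.71, adjusted p = 0.00767) while Csn8AKO replicate 2 stayed within the Ctrl range, and the call was lost with the lymph node level as a covariate (adjusted p = 0.547). In sWAT it was not called (1.55 ± 0.62, adjusted p = 0.191).

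Cxcr1, a receptor of neutrophil attractants, rose in BAT from very few counts. Its counts were 1, 4, 9, 0 and 6 in Ctrl BAT and 25, 39, 8, 81 and 22 in Csn8AKO BAT, a change of 3.43 ± 0.61 on the log2 scale (adjusted p = 0.000798), and it passed the filter on low counts only through the Csn8AKO BAT libraries. In sWAT it had 0, 14, 3 and 0 counts in the Ctrl libraries and 0 in each of the 4 Csn8AKO libraries, too few to be tested in that depot alone. The interaction had an adjusted p of 0.0332 by edgeR, but it rests on a group at 0 counts, so that no fold is given and no difference between depots is read from it. That call was lost with voom (adjusted p = 0.107), with the replicate block (0.0927) and in 8 of 18 fits with a library left out. Cxcr2, the near relative of Cxcr1 on the same chromosome, was at 0.0813 to 0.187 CPM in Csn8AKO BAT and 0.0351 to 0.372 CPM in Ctrl BAT. Neutrophil markers summed to 3.46 to 6.94 CPM in Ctrl and 3.66 to 7.63 CPM in Csn8AKO BAT (ratio of means 1.16, two-sided exact permutation test, p = 0.389). Of 4 markers tested in BAT, 1 rose, Csf3r (1.14, adjusted p = 0.00214), and 0 fell. In sWAT the ratio of the sums was 1.29 (two-sided exact permutation test, p = 0.0571). Of 5 markers tested there, 1 rose, again Csf3r (1.18, adjusted p = 0.0198), and 0 fell. Ly6g, a defining neutrophil gene, was not tested and had 0 counts in 15 of 18 libraries.

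The interferon-driven ligands divided. Cxcl9 was at 11.6, 12.0, 16.4 and 12.0 CPM in Ctrl sWAT and at 29.4, 17.2, 51.9 and 33.9 CPM in Csn8AKO sWAT, without overlap, and rose (1.35 ± 0.28, adjusted p = 0.0273). Its neighbors fell. Cxcl10 was at 13.1, 19.9, 13.5 and 12.7 CPM in Ctrl and at 3.73, 5.61, 5.10 and 5.14 CPM in Csn8AKO sWAT (-1.58 ± 0.21, adjusted p = 0.00396).

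Cxcl11 was at 9.43, 11.6, 5.04 and 7.76 CPM in Ctrl and at 3.41, 1.97, 1.74 and 3.54 CPM in Csn8AKO sWAT (-1.66 ± 0.32, adjusted p = 0.0187). In sWAT the groups of all 3 genes were apart, 1 upward and 2 downward. The call of Cxcl9 was lost in 7 of 8 fits with a library left out (adjusted p up to 0.0961), that of Cxcl11 in 2 of 8 (up to 0.0634) and that of Cxcl10 in 0 of 8.

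In BAT, Cxcl10 was at 6.39, 6.38, 7.06, 6.86 and 5.02 CPM in Ctrl and at 3.58, 2.32, 2.51, 3.73 and 2.87 CPM in Csn8AKO mice (-1.04 ± 0.16, adjusted p = 0.000297). Cxcl11 fell likewise from 3.04 ± 0.286 to 1.41 ± 0.473 CPM (SD, n = 5, -1.05 ± 0.22, adjusted p = 0.00200). Cxcl9 was at 15.6, 4.12, 5.73, 3.16 and 9.01 CPM in Ctrl and at 7.32, 6.99, 3.96, 5.82 and 4.94 CPM in Csn8AKO BAT, with groups that overlapped (-0.34, 95% interval -1.21 to 0.54). The difference of its change between depots was not called by edgeR (interaction -1.71 ± 0.55, adjusted p = 0.122) and was called by DESeq2 alone of 10 other settings (adjusted p = 0.0319).

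Cxcl9, Cxcl10 and Cxcl11 are neighbors on the minus strand of chromosome 5, and Cxcl10 and Cxcl11, but not Cxcl9, lie entirely inside Art3 (chr5:92331827-92414628, plus strand), an ADP-ribosyltransferase gene. Art3 was an abundant gene that fell as well, from 214 ± 34.4 to 103 ± 36.0 CPM in sWAT (SD, n = 4, -1.05 ± 0.23, adjusted p = 0.0318) and from 90.4 ± 14.5 to 53.9 ± 4.42 CPM in BAT (SD, n = 5, -0.72 ± 0.11, adjusted p = 0.000194). Exons of Art3 cover 5.91% of the exon bases of Cxcl10 and those of Gm2673, at no more than 0.177 CPM on average in any group, cover 41.7% of those of Cxcl11. Whether counting used the strand is not given in the sources used here. Without strand, reads from unspliced Art3 RNA and from Cxcl10 or Cxcl11 exons cannot be told apart. Cxcl10 amounted to 6.88% ± 0.662 of the Art3 level in Ctrl and 5.36% ± 2.57 in Csn8AKO sWAT (SD, n = 4), and to 7.10% ± 0.973 and 5.54% ± 0.908 in BAT (SD, n = 5).

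**Figure D3:**
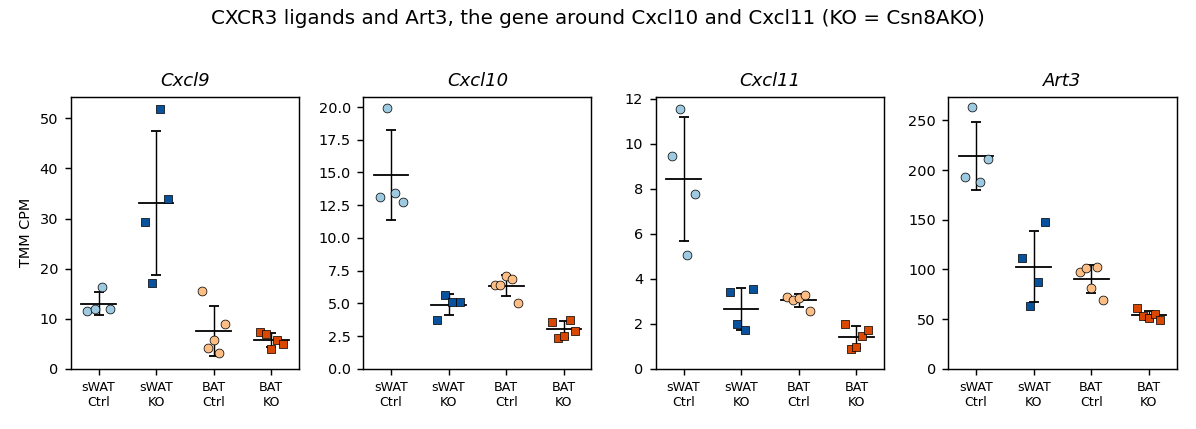
TMM CPM of Cxcl9, Cxcl10 and Cxcl11 and of Art3 in each library, with circles for Ctrl, squares for Csn8AKO, bars at the group mean and error bars of 1 SD. In sWAT Cxcl9 is higher in every Csn8AKO library than in any Ctrl library, whereas Cxcl10, Cxcl11 and Art3 are lower in every Csn8AKO library in both depots.

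The same position was shared by other members that fell, a feature looked for after the values were seen. Of the 47 members, 9 lie wholly inside the span of another gene, all on its opposite strand, and for 6 of them that gene exceeded 5 CPM in at least 1 group. Both members that fell in sWAT and 4 of the 5 that fell in BAT are among these 6, and none of those that rose. The rest of the 9 lie inside genes at lower levels, Ccl2 inside Gm17268, Ccl6 inside E230016K23Rik and Ccl19 inside 4930578G10Rik. Of these, Ccl6 rose in both depots and Ccl2 rose in BAT. E230016K23Rik itself rose in BAT (1.75, adjusted p = 0.00386). How often genes inside another gene fall was not counted over all genes. Without the 6, 6 of 34 members rose and 0 fell in sWAT, and 17 of 33 rose and 1 fell in BAT. These counts follow from the choice of the 6 and are no separate result. Ccr10, a receptor for skin-homing lymphocytes, lies inside Cntnap1, which itself fell in sWAT (-1.11, adjusted p = 0.00641) and BAT (-0.75, adjusted p = 0.000241). Ackr4, a scavenger of CCL19, CCL21 and CCL25, lies inside Acad11, which fell in BAT (-0.64, adjusted p = 0.00552). The remaining members of the 6 are Cxcr6 inside Fyco1 and Cxcl17 inside 4732471J01Rik, and neither was called, although the surrounding genes fell. Fyco1 fell in BAT (-0.57, adjusted p = 0.00391). The gene 4732471J01Rik fell in sWAT (-1.06, adjusted p = 0.0471) and in BAT (-0.34, adjusted p = 0.0302).

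Ccr10 was at 17.2, 13.6, 18.3, 18.3 and 12.3 CPM in Ctrl BAT and at 9.66, 9.72, 6.68, 7.67 and 7.74 CPM in Csn8AKO BAT (-0.92 ± 0.15, adjusted p = 0.000299). As a percentage of the Cntnap1 level it was 12.9% ± 1.94 and 11.4% ± 0.575 (SD, n = 5). Ackr4 fell from 22.1 ± 4.93 to 13.6 ± 3.69 CPM in BAT (-0.68 ± 0.21, adjusted p = 0.0260) and was 7.26% ± 0.559 and 7.26% ± 2.17 of the Acad11 level. Each of the 6 members was compared with its surrounding gene in each depot, 12 comparisons of log ratios by two-sided exact permutation tests. The smallest raw p was 0.0317, for Cxcl10 in BAT (0.778-fold), and the smallest adjusted p was 0.349. Such a test allows no raw p below 0.0286 in sWAT or 0.00794 in BAT, so these adjusted values do not show unchanged ratios. Cxcl10 in sWAT was 0.719-fold, and Cxcl11 was 0.679-fold in sWAT and 0.740-fold in BAT. Ratios of the remaining members ran from 0.889-fold to 1.57-fold. The BAT call of Ackr4 was lost in 5 of 10 other settings and in 5 of 10 fits with a library left out, those without Ctrl replicate 3, 4 or 5 or Csn8AKO replicate 1 or 5, with adjusted p up to 0.0618 in the latter. The part of the surrounding genes' reads in the falls of these members was not tested.

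Because the interferon-driven neighbors differed, the windows at their starts are shown as well, Cxcl9 at chr5:92328030-92328329 and Cxcl10 at chr5:92348840-92349139 (RefSeq, GRCm38.p6, minus strand), with the matches to the 2 motifs in capitals.
Cxcl9: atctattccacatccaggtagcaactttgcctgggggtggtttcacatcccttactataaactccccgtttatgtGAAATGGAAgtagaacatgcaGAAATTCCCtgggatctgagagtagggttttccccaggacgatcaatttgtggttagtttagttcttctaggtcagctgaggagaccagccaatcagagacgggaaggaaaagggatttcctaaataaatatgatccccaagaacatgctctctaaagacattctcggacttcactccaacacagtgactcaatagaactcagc
Cxcl10: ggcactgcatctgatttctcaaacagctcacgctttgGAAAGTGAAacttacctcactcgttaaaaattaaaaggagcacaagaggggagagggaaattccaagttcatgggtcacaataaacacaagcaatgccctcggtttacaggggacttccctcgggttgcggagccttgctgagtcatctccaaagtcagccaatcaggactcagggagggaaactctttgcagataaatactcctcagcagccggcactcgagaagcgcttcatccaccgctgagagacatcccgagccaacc
Cxcl9 holds 1 match to GAAANNGAA that starts 175 bases before its start site and 1 match to GGGANTTTC, read on the other strand, that starts 154 bases before it, and Cxcl10 holds 1 match to GAAANNGAA at 213 bases before. The first motif is in 8.56% of 32851 promoters of the same length and in 7 of the 35 members that had a promoter in the table, which were Ccl3, Ccl19, Ccr2, Cxcl9, Cxcl10, Cxcl14 and Cxcr1. The second is in 1.11% of all promoters and in 4 of the 35, Ccr3, Cxcl1, Cxcl9 and Cxcr2. A match describes letters only. GGGANTTTC is 1 narrow form of the NF-kB type site, so a window without a match, such as that of Cxcl10, may still hold such a site.

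The receptor of these ligands, Cxcr3, rose in BAT from 0.454 ± 0.117 to 1.13 ± 0.451 CPM (SD, n = 5, 1.34 ± 0.29, adjusted p = 0.00312), without overlap, and was not called in sWAT (0.43, 95% interval -0.43 to 1.30). Its BAT call was lost with the lymph node level as a covariate (0.94, adjusted p = 0.0719). Of 20 interferon-induced genes from a list, 0 were called in sWAT by edgeR. In BAT 2 rose and 3 fell, among them Mx1 (1.55, adjusted p = 0.00382) and Gbp3 (-0.72, adjusted p = 0.00157). Over all genes tested, 5.31% were called in sWAT and 31.9% in BAT. Their summed level was 454 ± 34.7 CPM in Ctrl and 439 ± 69.3 CPM in Csn8AKO sWAT (SD, n = 4, two-sided exact permutation test, p = 0.714), and 293 ± 27.2 and 256 ± 31.2 CPM in BAT (SD, n = 5, exact p = 0.0873).

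Several lymphoid members had their highest sWAT values in the 2 libraries high in lymph node genes. Ccr7, which leads T and dendritic cells to lymph nodes, was at 36.2, 1.30, 0.344 and 2.18 CPM in Ctrl and at 3.09, 44.9, 2.15 and 2.75 CPM in Csn8AKO sWAT. Cxcr5, the B cell receptor for CXCL13, was at 11.8, 0.951, 0.688 and 0.456 CPM in Ctrl and at 1.36, 27.9, 0.939 and 0.940 CPM in Csn8AKO mice. The highest value in each genotype belonged to the library with the lymph node genes, Ctrl replicate 1 and Csn8AKO replicate 2.

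The same libraries were highest in their group for Ccr6 (7.31 and 17.6 CPM), Ccr9 (9.52 and 16.1 CPM), Ccl22 (16.7 and 22.4 CPM), Ccl5 (40.0 and 42.1 CPM) and Ccl19 (0.935 and 1.38 CPM). Ccr6 and Ccl19 did not pass the filter on low counts in sWAT and were not tested there, Ccr6 with 420 counts in 1 library and at most 0.727 CPM outside the 2 libraries. The other 5 of these 7 genes were tested there and not called, with wide intervals such as -3.50 to 4.34 for Ccr7. Without both libraries the log2 fold changes were 1.06 for Ccr7 (adjusted p = 0.241), 0.65 for Cxcr5 (0.428), 0.87 for Ccl22 (0.208), -0.30 for Ccl5 (0.549) and 0.04 for Ccr9 (0.953). Ccl21a, an abundant lymph node chemokine with several near-identical gene copies, had at most 1 count in any library, and reads that align to several copies were not counted.

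Cxcl13 was also highest in these 2 libraries, although Ctrl replicate 4 lay close to Ctrl replicate 1. It was at 11.0, 3.80, 6.82 and 10.4 CPM in Ctrl sWAT and at 20.9, 56.1, 17.9 and 9.77 CPM in Csn8AKO sWAT. It was not called (1.73 ± 0.59, adjusted p = 0.145), nor without the 2 libraries (1.21, adjusted p = 0.108), and was called with the lymph node level as a covariate (1.45, adjusted p = 0.00617). Without the 2 libraries, 8 of 39 members rose in sWAT and 2 fell, beside 993 higher and 827 lower of all 18547 genes tested. Ccr2, Cxcl12, Cxcl16 and Ackr3 gained the call, while Ccl6 and Ackr1 lost it.

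**Figure D4:**
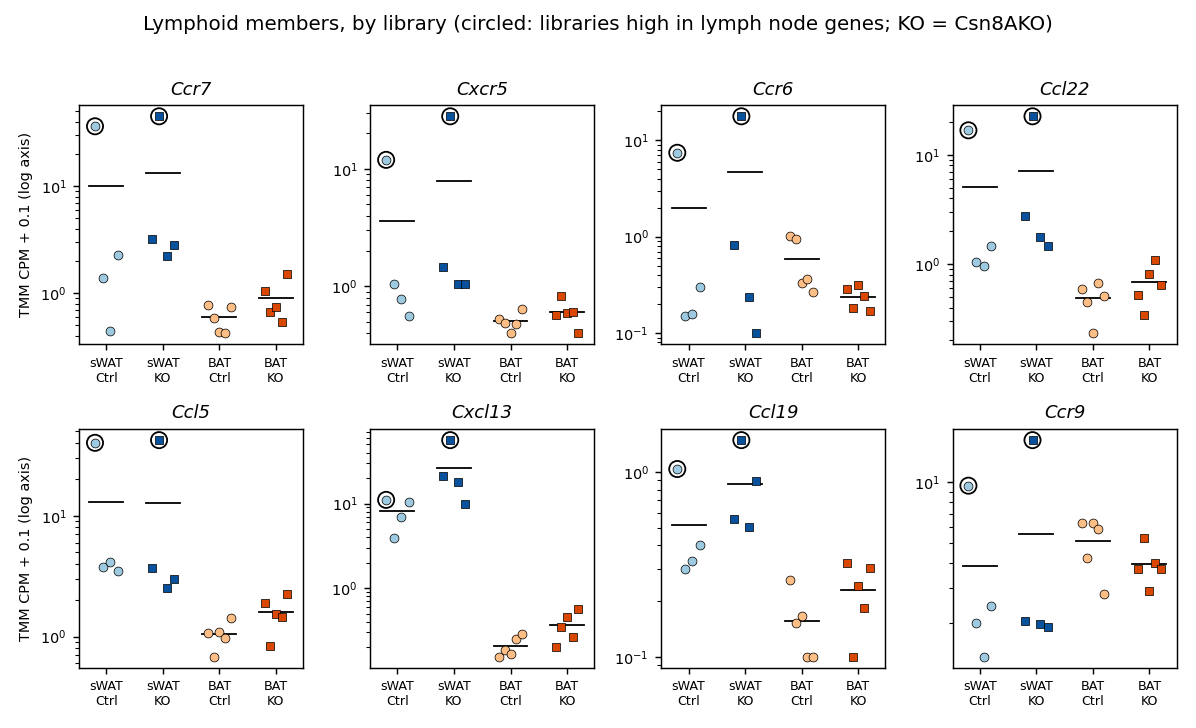
Level of 8 lymphoid members in each library as TMM CPM plus 0.1 on a log axis that differs between panels, with circles for Ctrl, squares for Csn8AKO, a bar at the group mean and rings around the 2 libraries high in lymph node genes. The ringed libraries hold the highest sWAT values of Ccr7, Cxcr5, Ccr6, Ccl22, Ccl5, Ccl19 and Ccr9, while for Cxcl13 the ringed Ctrl library at 11.0 CPM lies close to another Ctrl library at 10.4 CPM.

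In BAT, where no library was high in lymph node genes, Ccr6, a receptor of B cells and T helper cells, was at 0.917, 0.842, 0.234, 0.267 and 0.167 CPM in Ctrl and at 0.187, 0.0813, 0.212, 0.140 and 0.0676 CPM in Csn8AKO mice. It fell (-1.70 ± 0.54, adjusted p = 0.0278), although 1 Ctrl library overlapped the Csn8AKO range, and the call was lost without Ctrl replicate 1 or 2, which were the highest, without Csn8AKO replicate 4 or 5, with voom and with all 4 groups in one fit. Cxcr4, the receptor of CXCL12 on many leukocytes and stromal cells, rose in BAT from 2.29 ± 0.512 to 6.31 ± 1.83 CPM (1.49 ± 0.22, adjusted p = 0.000172). Ccr7 (0.72, 95% interval -0.04 to 1.48), Cxcr5 (0.31, -0.31 to 0.93), Ccr9 (-0.36, -0.85 to 0.12) and Xcr1, the receptor of cross-presenting dendritic cells (0.91, adjusted p = 0.0695), were not called in BAT. T cell markers summed to 4.31 to 6.96 CPM in Ctrl and 10.3 to 16.6 CPM in Csn8AKO BAT, 5 of 11 tested rose, and their part in the rise of Cxcr3 and Cxcr4 was not tested.

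Among stromal ligands, Cxcl12, which retains leukocytes and progenitors through CXCR4, was the ligand of highest level per kilobase in BAT. It was at 108, 131, 109, 118 and 187 CPM in Ctrl and at 189, 132, 272, 298 and 288 CPM in Csn8AKO BAT (0.87 ± 0.23, adjusted p = 0.0149), with groups that overlapped. The call was lost with no filter on low counts and with the lymph node level as a covariate (0.44, adjusted p = 0.199). In sWAT it was at 142, 108, 128 and 136 CPM in Ctrl and at 186, 149, 196 and 237 CPM in Csn8AKO mice, without overlap, and missed the threshold (0.58 ± 0.17, adjusted p = 0.0755). Cxcl16, a membrane-bound ligand of CXCR6 and scavenger receptor, rose in BAT from 2.56 ± 0.362 to 5.74 ± 0.854 CPM (1.19 ± 0.16, adjusted p = 6.76e-05). An overlap with Zmynd15 on the opposite strand covers 18.3% of its exon bases. Fibroblast markers rose in BAT too, 8 of 8 tested, with sums of 781 to 1288 CPM in Ctrl and 1787 to 3434 CPM in Csn8AKO mice, and their part in the stromal ligands was not tested.

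Cxcl14, expressed in epithelia and adipose tissue, was at 46.2, 62.9, 40.6 and 39.5 CPM in Ctrl and at 39.4, 22.0, 27.4 and 28.4 CPM in Csn8AKO sWAT, each Csn8AKO library below each Ctrl library, without a call (-0.68 ± 0.20, adjusted p = 0.0757). In BAT it was at 6.00 ± 1.02 and 8.94 ± 3.65 CPM (0.59 ± 0.29, adjusted p = 0.141). The interaction was not called (1.26 ± 0.40, adjusted p = 0.111).

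Ccl11 (eotaxin), which attracts eosinophils, rose in BAT from 9.35 ± 0.553 to 13.1 ± 2.73 CPM (0.51 ± 0.14, adjusted p = 0.0120) and had a value of 0.34 in sWAT (95% interval -0.31 to 0.98). Its BAT call was lost when the lymph node level was a covariate (0.21, adjusted p = 0.227) and when all 4 groups shared a fit. Ccl24 (eotaxin-2) was at 0.472 ± 0.155 and 0.549 ± 0.302 CPM in BAT and was called in neither depot. Markers of eosinophils and mast cells summed to 2.35 to 4.99 CPM in Ctrl and 18.8 to 36.3 CPM in Csn8AKO BAT, and 5 of 5 tested rose. In sWAT their sums were 45.8 to 82.3 and 74.2 to 238 CPM, with 1 of 7 higher. Ccl5, Ccl22, Ccl25, Ccl27a and Ccl28 were not called in either depot where tested.

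Of the atypical receptors, Ackr1, which carries chemokines across venules, was at 5.23, 6.11, 9.34 and 5.93 CPM in Ctrl and at 12.0, 12.5, 11.9 and 12.2 CPM in Csn8AKO sWAT (0.88 ± 0.20, adjusted p = 0.0345). In BAT it was at 0.593, 0.526, 0.401, 0.762 and 0.726 CPM in Ctrl and at 1.70, 0.325, 0.989, 1.12 and 1.52 CPM in Csn8AKO mice (0.97 ± 0.34, adjusted p = 0.0451), with Csn8AKO replicate 2 the lowest of all. Its call was lost in 6 of 8 fits with a library left out in sWAT and in 9 of 10 in BAT. It was also lost in sWAT without the 2 libraries high in lymph node genes (0.76, adjusted p = 0.0516), and with the lymph node level as a covariate the BAT value was 0.05 (adjusted p = 0.940). Ackr1 shares 25.7% of its exon bases with Cadm3 on the same strand, where a read is ambiguous, and Cadm3 rose in BAT (0.60, adjusted p = 0.0117). Ackr2, a scavenger of inflammatory CC chemokines, rose in BAT from 0.441 ± 0.129 to 1.06 ± 0.346 CPM (1.25 ± 0.29, adjusted p = 0.00471). Ackr3, the CXCL12 scavenger, was the member of highest level per kilobase in Ctrl BAT (42.3 ± 23.3 TMM CPM per kb, SD, n = 5) and was called in neither depot, with values of 0.85 (95% interval 0.13 to 1.57) in sWAT and -0.39 (-1.31 to 0.52) in BAT.

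Between depots the members differed widely. In Ctrl mice 26 of 42 members tested were lower in BAT than in sWAT and 4 higher, beside 52.7% of all 22381 genes called, 25.7% higher and 27% lower. The median of the members was -2.24 (log2, BAT over sWAT) and that of all genes tested 0.01. The largest called differences were in Ccl8 (-6.41), Cxcl13 (-6.18), Ccl7 (-6.13), Ccl6 (-5.11) and Ccl24 (-5.05). Ccl25, Ccl27a, Ccr10 and Ackr3 were higher in BAT by 0.60, 1.96, 1.87 and 1.41, where Cntnap1 around Ccr10 stood at 124 ± 17.9 CPM in BAT and 23.9 ± 5.34 CPM in sWAT, and Ccl27a has near-identical copies that share reads. The call of Ackr3 was lost with library size alone, with the lymph node level as a covariate (1.16, adjusted p = 0.163), and without Ctrl sWAT replicate 1, 3 or 4. Cxcl12 did not differ detectably (-0.03, 95% interval -0.38 to 0.32). Macrophage markers were all lower in BAT, 16 of 16, and their part in the lower members was not tested.

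Ctrl sWAT replicate 1, high in lymph node genes, entered the depot comparison. Without it, 25 of 43 members tested were lower in BAT and 4 higher, and the median of the members was -1.45. The share and median over all genes in that fit are not given here, and those of the main fit do not apply to it. Cxcr5 went from -3.16 to -0.81 (adjusted p = 0.0939), Xcr1 from -1.74 to -0.95 (0.135) and Ackr3 from 1.41 to 1.31 (0.0791), and all 3 lost the call. Ccr9 went from 0.34 to 1.40 and was then called higher in BAT (adjusted p = 0.00209). Ccr7 went from -4.41 to -1.42 (adjusted p = 0.0230), Ccl22 from -3.75 to -1.49 (0.0110) and Ccr6, not called in either fit, from -2.09 to 2.12 (0.0536). Ccl3, tested only without that library, was called lower in BAT (-1.58, adjusted p = 0.0499).

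Per kilobase, the levels in Ctrl sWAT were headed by Ccl6, Ccl11 (46.1 ± 9.13 TMM CPM per kb, SD, n = 4), Cxcl14 (25.9 ± 5.92), Ccl8 (24.3 ± 6.90), Ccl9 (16.2 ± 4.61) and Cxcl12 (15.7 ± 1.82), of which Ccl6 and Ccl11, Cxcl14 and Ccl8, and Ccl9 and Cxcl12 lay within their SDs of each other. In Csn8AKO sWAT Ccl6 (126 ± 58.2) and Ccl8 (92.9 ± 44.7) were first and overlapped in spread. In Ctrl BAT Ackr3 was followed by Cxcl12 (16.0 ± 4.01, SD, n = 5), Ccr10 (9.23 ± 1.63) and Ccl11 (8.64 ± 0.511). In Csn8AKO BAT Ackr3 (31.8 ± 8.70) and Cxcl12 (28.8 ± 8.82) lay within their spread, and Ccl6 had a level of 8.09 ± 1.83.

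Genes outside the symbol rule but of the same pathway are given beside the shares of all genes called. Those were 5.31% in sWAT (2.3% higher, 3% lower) and 31.9% in BAT (16% higher, 15.8% lower). The counts of these lists were not tested against the shares. Of 39 genes of chemokine signal transduction, 2 rose in sWAT, Rgs16 (1.80, adjusted p = 0.0204), a regulator that ends G protein signals, and Gng2 (0.73, adjusted p = 0.0384), a G protein subunit. In BAT 22 rose and 3 fell, led by the phospholipase gene Plcb2 (2.91, adjusted p = 2.36e-06) and Pik3r5 (1.45, adjusted p = 2.86e-06), a regulatory subunit of PI3 kinase gamma. Of 17 genes of the NF-kB pathway, 0 were called in sWAT by edgeR and 4 fell in BAT, among them Rel (-0.52, adjusted p = 0.00766) and Ikbkg (-0.26, adjusted p = 0.0335). Of 10 relatives that the naming rule leaves out, 6 were tested, and 1 rose in sWAT and 5 in BAT. Gpr35 rose in both (1.28, adjusted p = 0.0367, and 1.42, adjusted p = 0.000217). Cmklr1, the chemerin receptor, rose in BAT (1.20, adjusted p = 0.000137) and had a value of -0.81 in sWAT (adjusted p = 0.0708), and its change differed between the depots (interaction 1.99, adjusted p = 0.000921).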

How the data were processed

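The mice, diet and groups are those of the labels, with 1 mouse per library, so that each group is 4 or 5 animals. According to the labels and methods, the authors depleted ribosomal RNA, used STAR 2.7.9a to align read pairs to GRCm38, and kept for counting by featureCounts those with a single alignment and a single gene. The strand setting is not given in the sources used here. The authors deposited an unnormalized count per gene and library, beside CPM, FPKM and TPM that they made from it. The deposited CPM, FPKM and TPM were not used further.

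From the counts, genotypes were compared within each depot with edgeR 4.0.16 in R 4.3.3 (TMM factors, filterByExpr with a minimum count of 10 and total of 15, robust quasi-likelihood fits, Benjamini-Hochberg adjustment over all genes tested). The interaction of genotype and depot used all 18 libraries, and Ctrl BAT was compared with Ctrl sWAT over 9. Standard errors are the absolute log2 fold change divided by the root of F. The 95% intervals use the total degrees of freedom of the fit, residual plus prior. Levels are TMM CPM over all libraries. Exact permutation tests, two-sided, served for single sums and ratios. Alternatives were RLE factors, library size alone, 2 other filters, DESeq2 1.42.0, limma 3.58.1 voom with quality weights, a replicate block, all 4 groups in one fit, no ribosomal RNA genes, the lymph node level as a covariate or those libraries left out, and each library left out. A count without the 6 members whose surrounding gene exceeded 5 CPM was added after the data were seen. Its smaller number of falls follows from the choice of these members. Below, these are the members inside another gene. The fits were tested on simulated data. Tables used Python 3.11.15, pandas 2.3.3 and scipy 1.17.1.

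The members and gene lists were chosen with earlier results of these data known. All members enter the counts and medians, and the values of 1 of them are not reported here. Those named with values have an adjusted p under 0.05 in either depot or the interaction, or are monocyte, neutrophil, interferon or lymphoid ligands or their receptors. Cxcl14, Ccl24 and Ackr3, and members named for their level, their depot difference or their lack of a call, were added after their values were seen. Of the other lists, counts and the 2 called genes of smallest adjusted p are given. The surrounding genes were chosen after their values were seen. Totals of 15835721 to 66719937 counts set the precision, and members under 1 CPM rest on few counts.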

Additional observations from a re-analysis of the deposited data

Results flagged for a closer look

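Within groups of 4 or 5 libraries, 17 of 187 tests found a library far from the others by Dixon's criterion, where chance gives about 1 in 20 (9.35), and 0 of them were in BAT. In Ctrl sWAT replicate 1, which was high in lymph node genes, the levels that stood apart were those of Ccl5 (40.0 CPM), Ccr7 (36.2 CPM), Ccl22 (16.7 CPM), Cxcr5 (11.8 CPM), Ccr9 (9.52 CPM), Ccr6 (7.31 CPM) and Ccl19 (0.935 CPM). In Csn8AKO sWAT replicate 2, also high in those genes, they were those of Ccr7 (44.9 CPM), Ccl5 (42.1 CPM), Cxcr5 (27.9 CPM), Ccl22 (22.4 CPM), Ccr6 (17.6 CPM), Ccr9 (16.1 CPM), Cxcl1 (6.24 CPM) and Cxcr2 (5.49 CPM). Cxcl10 stood apart in Ctrl sWAT replicate 2 (19.9 CPM) and Cxcl9 in Ctrl sWAT replicate 3 (16.4 CPM).

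The interaction test of edgeR called Cxcr1 (adjusted p = 0.0332), with 0 counts in the 4 Csn8AKO sWAT libraries, and neither voom nor the replicate block did, so that it does not show a difference between the depots.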

How the results depend on the processing

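Depth limits members under 1 CPM, and sWAT calls were few and sensitive to single libraries. In sWAT, 6 members higher and 2 lower became 2 and 2 with library size alone, 10 and 3 with DESeq2, 11 and 3 with the lymph node level as a covariate, and 6 and 0 without the members inside another gene. With a library left out they ranged from 1 to 7 higher and 1 to 2 lower, with 1 higher without Ctrl replicate 2 or Csn8AKO replicate 3, 2 without Ctrl replicate 3, Ctrl replicate 4 or Csn8AKO replicate 1, and 4 without Ctrl replicate 1. In BAT, 17 and 5 became 10 and 4 with a filter of 1 CPM, which tests fewer genes. They became 18 and 3 with all 4 groups in one fit, and 17 and 1 without the members inside another gene. With the lymph node covariate they were 11 and 4. No BAT library was high in lymph node genes, so that drop is not read as an effect of lymph node content. Leaving out a library gave 16 to 20 higher and 3 to 6 lower, with 3 lower without Csn8AKO replicate 5. The interaction called 1 higher and 0 lower, 0 with the 1 CPM filter or with at least 10 counts in 8 libraries, 2 and 1 with DESeq2 or the lymph node covariate, 2 and 0 with voom, and 0 to 2 higher with a library left out. Between depots, 4 higher became 2 with library size alone. Ccr6 reversed between depots, from -2.09 to 3.90 with the lymph node covariate and to 2.12 without Ctrl sWAT replicate 1. Except where the construction shows it, the cause was not tested.

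Replicate numbers did not pair the samples: correlations of same-numbered deviations were -0.17, -0.39, 0.22 and -0.09 in sWAT and 0.14, -0.13, -0.02, -0.08 and 0.14 in BAT, and not every sample correlated best with its own number. With the replicate number as a block, 5 members were higher and 2 lower in sWAT, 18 and 4 in BAT, and 0 and 0 in the interaction.

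Over all genes, 434 higher and 566 lower in sWAT became 106 and 328 with library size alone, 846 and 976 with DESeq2, 1077 and 1078 with voom, 1096 and 1260 with the lymph node covariate, 134 and 165 with the block, 1044 and 1419 with all 4 groups, and 993 and 827 without the libraries high in lymph node genes. In BAT, 3585 and 3536 became 4183 and 2087 with library size alone and 2259 and 2453 with the covariate. The interaction's 362 and 170 became 494 and 39 with library size alone, 743 and 360 with DESeq2, 572 and 331 with voom, 789 and 343 with the covariate, and 208 and 89 with the block. Between depots, 5748 and 6039 became 3781 and 6719 with library size alone, which moved the median of all genes from 0.01 to 0.14 in BAT, from 0.01 to -0.19 between depots, and to 0.21 in the interaction.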
